A study of Mus musculus with 56 samples.

Results

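Sterol and fatty acid synthesis and cholesterol efflux were followed through 30 genes in monocytes and macrophages sorted from injured mouse tissue. The genes were taken by name from a list of 30, and each name matched exactly 1 of the 52636 gene rows of the heart table and 1 of the 57010 rows of the bone, muscle and skin table. By role, 7 belong to the mevalonate pathway, 9 lead from squalene to cholesterol, 3 sense or carry sterols, 6 make fatty acids, 4 are targets of the liver X receptors (LXRs) and 1 esterifies cholesterol. After a filter on low counts, 28 of the 30 could be tested in heart, where Idi1 and Scd1 had too few counts. All 30 could be tested in bone, muscle and skin.

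Each mouse was 10 weeks old, carried 1 injury (myocardial infarction, a defect of the skull bone, volumetric loss of muscle, or a punch wound of the skin) and received diphtheria toxin at 20 ng per g. The depleted arm was Foxp3(DTR/GFP) mice, called FDG in the labels, which express the toxin receptor from the Foxp3 locus and lose their regulatory T cells (Tregs) when given toxin. The control arm was wild-type C57BL/6J mice, which received the same toxin. The 56 bulk libraries, made from 3′ ends, fell into 16 groups: 3 libraries per arm at days 4 and 7 in heart and in muscle, 4 per arm at days 4 and 7 in skin, and in bone 5 per arm at day 7 and 3 per arm at day 10. Genotype and depletion go together, so an effect of the allele and an effect of Treg loss cannot be told apart. The heart columns without a day in their names were taken as day 7, because the other 6 are marked as day 4. Whether the libraries of a group are separate animals is not stated, so p-values measure the spread between libraries, which may be partly technical.

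Cholesterol and fatty acid synthesis are driven by the sterol regulatory element-binding proteins (SREBPs), which Insig proteins hold in the endoplasmic reticulum while sterol is plentiful. Oxysterols and sterol intermediates activate the LXRs, nuclear receptors that switch on the export pumps Abca1 and Abcg1, the ubiquitin ligase Mylip (Idol) and Srebf1, which drives fatty acid synthesis. In macrophages this pair of programs balances cholesterol taken up from dead cells and lipoproteins against cholesterol made in the cell.

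Total counts ran from 2318223 to 9788811 per library. All 10 markers of the macrophage and monocyte list (Cd68, Csf1r, Adgre1, Lyz2 and others) were found in every group. Some libraries stood apart in ways that bear on the results. The 3 heart controls of day 4 had a summed CPM (counts scaled to a common library size) of 66759 to 73057 on genes of ribosomal proteins, against 23541 to 28202 in the other 9 heart libraries, so every comparison with that group compares libraries that also differ in this share. In bone, the summed macrophage and monocyte markers were lower in the depleted arm at day 7 (10464 to 15555 CPM against 17588 to 27867) and at day 10 (10108 to 13329 against 18575 to 20030). At day 7, 7 of 10 of these markers fell and none rose, and at day 10, 5 fell and 1 rose. The bone libraries also carried granulocyte transcripts: the 13 neutrophil markers summed to 8784 to 27719 CPM in depleted and 6108 to 12361 in control cells at day 7, and to 17911 to 29859 against 5466 to 9996 at day 10, with none at 0 in any of these groups. In depleted against control bone at day 7, mast cell, basophil and eosinophil markers summed to 342 to 2807 against 197 to 439 CPM. T and natural killer cell markers were at 178 to 353 against 72.2 to 111 CPM. Osteoclast markers were at 289 to 832 against 807 to 2796 CPM and fibroblast markers at 126 to 1499 against 955 to 3989 CPM. At day 10 the mast cell list summed to 1404 to 2079 against 320 to 802 CPM. The osteoclast list there summed to 270 to 447 against 1018 to 1391 CPM. In bulk RNA, fewer cells of a type and less RNA per cell cannot be told apart. The part of these differences in the results below was not tested.

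The promoters of 3 members are shown because they carry the elements through which sterols are known to act. Of the 30 members, 23 had at least 1 promoter in a RefSeq table of GRCm38.p6, which holds 250 bases before and 50 after each start. In the Abca1 promoter (chr4:53159846-53160145, minus strand) and the Srebf1 promoter (chr11:60210422-60210721, minus strand) the capitals mark 2 copies of GGTNA with 5 bases between them, read on the opposite strand, the core of the LXR response element. In the Hmgcs1 promoter (chr13:119690101-119690400, plus strand) the capitals mark TCACNCCAC, a form of the sterol regulatory element. Each sequence runs 5′ to 3′ on the gene's own strand.
Abca1: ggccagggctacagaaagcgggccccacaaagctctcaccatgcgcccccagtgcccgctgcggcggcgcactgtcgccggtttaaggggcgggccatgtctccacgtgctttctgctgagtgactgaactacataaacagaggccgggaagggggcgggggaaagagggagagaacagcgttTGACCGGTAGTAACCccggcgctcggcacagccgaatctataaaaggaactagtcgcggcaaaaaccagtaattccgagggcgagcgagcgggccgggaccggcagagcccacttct
Srebf1: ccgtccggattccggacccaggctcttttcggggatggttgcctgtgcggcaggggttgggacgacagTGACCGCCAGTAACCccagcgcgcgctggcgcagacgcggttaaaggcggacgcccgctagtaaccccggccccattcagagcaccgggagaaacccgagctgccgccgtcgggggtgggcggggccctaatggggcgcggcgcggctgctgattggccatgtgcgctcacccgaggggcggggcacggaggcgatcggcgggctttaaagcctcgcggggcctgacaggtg
Hmgcs1: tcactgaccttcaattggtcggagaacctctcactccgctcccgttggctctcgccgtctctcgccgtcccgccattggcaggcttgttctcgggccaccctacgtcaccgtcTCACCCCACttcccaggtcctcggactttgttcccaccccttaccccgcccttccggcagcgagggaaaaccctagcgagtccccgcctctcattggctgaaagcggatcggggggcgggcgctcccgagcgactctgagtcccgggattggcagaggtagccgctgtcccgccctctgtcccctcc

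The repeat lies 67 to 53 bases before the start of Abca1 and 182 to 168 bases before the printed start of Srebf1, and it was found in 0.72 percent of the 32851 promoters searched on both strands. Srebf1 has 3 starts in the table and spans 60199089 to 60222581 on chromosome 11, so the printed start lies inside the gene. Among the members the repeat was also found in Fasn, and in no other. The TCACNCCAC element lies 137 to 129 bases before the start of Hmgcs1, the only matched member that held it, and occurred in 1.24 percent of all promoters. CCAAT, the box bound by NF-Y, a partner of the SREBPs, was found in 19 of the 23 members and in 37.41 percent of all promoters. The 23 members had 28 promoters, and a member was counted if any of its own matched, so the 2 shares have different units. A match describes letters, not a bound site.

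The 2 export pumps differed between depleted and control cells in several tissues. Abca1, which loads cholesterol and phospholipid onto apolipoprotein A-I, was lower in depleted cells of the skull defect at day 7 and of the infarct at day 4. Abcg1, which exports cholesterol to high-density lipoprotein, was lower in bone at both days, lower in heart at day 4 and higher in skin at day 7. Over the 8 comparisons of depleted with control cells, 12 of 236 tested values of members were called (5.08 percent), against 9.23 percent of the 99142 values over all genes. The 4 LXR targets gave 6 calls of 32 values (18.8 percent), 5 lower and 1 higher, and the 16 enzymes of sterol synthesis gave 4 of 126 (3.17 percent), all higher. A call here is an adjusted p under 0.05 by the quasi-likelihood test of edgeR (Benjamini-Hochberg over all genes), and log2 changes are depleted minus control. SE is an approximate standard error, the absolute log2 change divided by the square root of the test's F statistic. The share of all genes whose arms do not overlap was not counted, so lack of overlap without a call is description only.

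In bone at day 7, Abca1 (chromosome 4, 53030787 to 53159895 in GRCm38) was at 37.4, 25.8, 22.1, 36.6 and 25.7 CPM in the 5 control libraries and at 8.97, 6.25, 16.9, 4.84 and 5.06 CPM in the 5 depleted ones. Every depleted library lay below every control. The log2 change was -1.82 (SE 0.34, adjusted p = 0.000521). For Abcg1 (chromosome 17, 31057675 to 31117988) the control libraries held 115, 77.3, 114, 79.5 and 97.1 CPM and the depleted libraries 46.9, 54.1, 64.1, 37.8 and 36.5 CPM. The arms again did not overlap, and the log2 change was -1.02 (SE 0.18, adjusted p = 0.000364). In this comparison 12.6 percent of all genes tested were called lower and 11 percent higher; of the members, 2 of 30 were lower and 3 higher. Both pumps stayed past the threshold without each library in turn, with log2 changes of -2.25 to -1.67 for Abca1 and -1.15 to -0.94 for Abcg1. The summed macrophage and monocyte markers given above were also lower in the depleted arm, and their part in the pump values was not tested.

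In bone at day 10, Abcg1 was at 74.1, 120 and 140 CPM in controls and at 50.7, 58.9 and 61.1 CPM in depleted libraries. The arms did not overlap, and the log2 change was -0.95 (SE 0.24, adjusted p = 0.00994). Abca1 was at 18.7, 21.9 and 28.1 CPM in controls and at 5.82, 14.2 and 21.9 CPM in depleted libraries, which overlapped, and its log2 change of -0.69 (SE 0.44, adjusted p = 0.297) did not pass. Here 8.22 percent of all genes were called lower and 8.95 percent higher, against 1 of 30 members each way. The Abcg1 call was lost without the third control library (adjusted p = 0.108) and with the level of the ribosomal RNA gene Rn18s-rs5 as a covariate. Rn18s-rs5 was at 66976 to 94968 CPM in depleted and 17098 to 26114 CPM in control bone at day 10. No member's depletion effect was called different between days 10 and 7 in bone, where 0 percent of all genes were.

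In heart at day 4, Abca1 was at 123, 86.2 and 111 CPM in controls and at 48.2, 71.9 and 56.3 CPM in depleted libraries. No depleted library reached a control, and the log2 change was -0.88 (SE 0.15, adjusted p = 0.000598). Abcg1 was at 164, 205 and 194 CPM in controls and at 114, 139 and 128 CPM in depleted libraries, also without overlap, with a log2 change of -0.57 (SE 0.18, adjusted p = 0.0484). The Abca1 call remained without each library in turn, whereas the Abcg1 call was lost in all 6 such fits. Of all genes 6.85 percent were called lower and 4.25 percent higher, against 2 and 1 of the 28 members tested. By day 7 both pumps were close between the arms: Abca1 was at 162, 135 and 152 CPM in controls and at 149, 145 and 130 CPM in depleted libraries, and Abcg1 at 187, 112 and 183 CPM against 171, 157 and 125 CPM. The log2 changes were -0.08 (SE 0.14) and -0.08 (SE 0.17). No member was called in heart at day 7, where 1.58 percent of genes were called higher and 1.56 percent lower. The change in the depletion effect of Abca1 from day 4 to day 7 was itself called (log2 0.79, SE 0.21, adjusted p = 0.0336), although it passed without only 4 of the 12 libraries taken out in turn. Of all genes 4.09 percent were called for that difference, against 2 of 28 members. The day 4 values rest on the controls with the high ribosomal protein share.

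Skin differed in direction for Abcg1. At day 7 its levels were 56.2, 47.9, 85.6 and 78.7 CPM in controls and 100, 101, 115 and 147 CPM in depleted libraries. All depleted libraries lay above all controls, and the log2 change was 0.81 (SE 0.17, adjusted p = 0.00428), a call that held without each library in turn. Abca1 in the same libraries was at 47.9, 57.8, 77 and 87.7 CPM in controls and at 54, 42.3, 70.2 and 33.6 CPM in depleted libraries, overlapping, with a log2 change of -0.41 (SE 0.23, adjusted p = 0.381). Of all genes 2.95 percent were called higher and 3.27 percent lower, against 2 and 0 of 30 members. At day 4 neither pump passed in skin (Abca1 log2 -0.31, SE 0.23; Abcg1 log2 -0.10, SE 0.17), and no member was called, with 2.12 percent of genes higher and 1.45 percent lower. The effect of depletion was called different between the days for no member in skin, where 0.848 percent of genes were called. The macrophage and monocyte markers of skin at day 7 summed to 19363 to 19884 CPM in depleted and 16048 to 21505 CPM in control cells, and the 9 markers of mast cells, basophils and eosinophils to 164 to 476 against 52.9 to 120 CPM. The part of these granulocyte transcripts in the Abcg1 value was not tested.

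Muscle gave no call for either pump. At day 4 Abca1 was at 132, 128 and 106 CPM in controls and at 71.9, 102 and 95.3 CPM in depleted libraries, which did not overlap, but the log2 change of -0.44 (SE 0.20) had an adjusted p of 0.565. At day 7 it was at 37.1, 76.1 and 59.6 CPM against 41.1, 34.6 and 33.1 CPM, with a log2 change of -0.66 (SE 0.21, adjusted p = 0.0631). The log2 changes of Abcg1 in muscle were -0.04 (SE 0.14) at day 4 and -0.14 (SE 0.14) at day 7. No member was called in muscle at day 4, where 0.0542 percent of genes were called higher and 0.101 percent lower, or at day 7, where 4.67 percent were higher and 3.92 percent lower. No member's depletion effect was called different between the days, against 2.41 percent of all genes. In muscle at day 7 the 13 neutrophil markers summed to 1073 to 2746 CPM in depleted and 210 to 258 CPM in control cells, and the 9 markers of mast cells, basophils and eosinophils to 180 to 356 against 12.2 to 14.1 CPM. Their part in any value of muscle at day 7, here or below, was not tested.

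**Figure D1:**
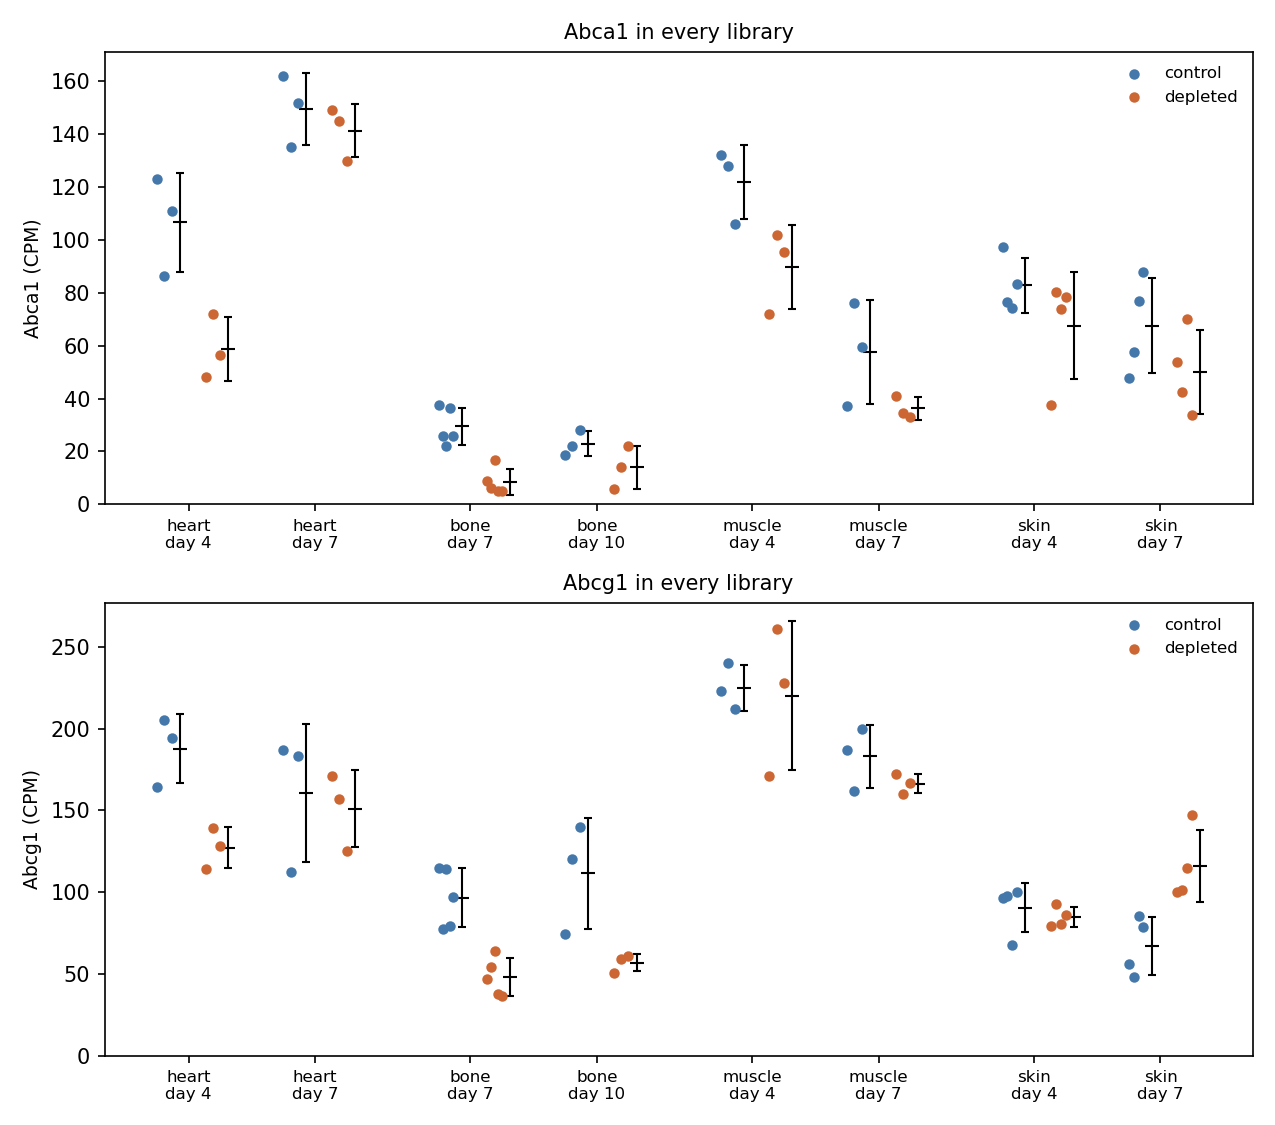
Abca1 (upper) and Abcg1 (lower) in CPM, with 1 point per library, control in blue and depleted in orange, for each tissue and day; the black mark and bar beside each group are its mean and SD. The depleted points lie below all controls for both pumps in bone at day 7 and heart at day 4, and above them for Abcg1 in skin at day 7. Heart was scaled separately from the other tissues.

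Bone, muscle and skin share a table, so the effects of depletion at day 7 could be tested against each other. The Abcg1 effect was lower in bone than in skin (difference of log2 changes -1.81, SE 0.25, adjusted p = 4.58e-06), and this held without each of the 18 libraries in turn. The Abca1 effect was also lower in bone than in skin (-1.38, SE 0.41, adjusted p = 0.0251), and the Abcg1 effect lower in bone than in muscle (-0.87, SE 0.27, adjusted p = 0.0301). These last 2 calls were lost without 7 of 18 and 8 of 16 libraries. Of all genes 9.37 percent were called for bone against skin, 8.28 percent for bone against muscle and 2.78 percent for muscle against skin, where no member passed.

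The other LXR targets, Mylip and Srebf1, gave no call for depletion. Mylip passed in none of the 8 depletion comparisons, with log2 changes from -0.50 in skin at day 7 to 0.18 in bone at day 10. Srebf1, which shares the repeat printed above with Abca1, ran from log2 -0.44 in heart at day 4 to 0.27 in muscle at day 4 and was also not called. In heart at day 4 its levels were 32.1, 41.6 and 43.9 CPM in controls and 30.8, 27.7 and 27.9 CPM in depleted libraries, which did not overlap (adjusted p = 0.125). Reads of Srebf1 may be shared with Rai1, whose exons overlap it, since the strand used in counting is not given in the sources used here.

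Of the sterol synthesis enzymes, 3 in the mevalonate pathway rose with depletion in some tissue. Fdps, which makes farnesyl pyrophosphate, was at 27.5, 31.5, 17.8, 24 and 23.5 CPM in bone controls of day 7 and at 60.7, 65.9, 47.4, 61.2 and 59.3 CPM in depleted libraries. All depleted libraries stood above all controls, and the log2 change was 1.22 (SE 0.15, adjusted p = 7.68e-06). At day 10 the same gene was at 30.4, 31 and 38.6 CPM against 38.7, 37.6 and 34.5 CPM (log2 0.16, SE 0.20). Fdps shares 27.9 percent of its 31-base words with other annotated genes, including an overlapping gene model on the same strand, so its counts are uncertain. Idi1, the isomerase a step before it, was at 5.31, 8.59, 6.16, 7.99 and 10.4 CPM in bone controls and 12.5, 11.4, 14.1, 15.9 and 9.83 CPM in depleted libraries of day 7. Its arms overlapped by 1 library each, with a log2 change of 0.74 (SE 0.23, adjusted p = 0.0209), and the call was lost without 3 of the 10 libraries and with the Rn18s-rs5 covariate. Idi1 shares 27.1 percent of its words with other genes. Its depletion effect was higher in bone than in muscle at day 7 (1.31, SE 0.41, adjusted p = 0.0367), and was past the threshold without 9 of 16 libraries. In heart, group means were 0.0541 to 0.27 CPM for Idi1, against 4.32 to 18.7 CPM in the other tissues. For Fdps they were 1.73 to 2.92 CPM in heart against 15.2 to 58.9 CPM. Heart counts were deposited as another type, and whether expression or the counting of shared words gives these differences was not tested.

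Markers of dividing cells were higher in depleted bone. The 17 markers of dividing cells (Mki67, Top2a and others) summed to 1873 to 2722 CPM in depleted and 773 to 1198 CPM in control cells at day 7, and all 17 rose. At day 10 the sums were 1630 to 1632 against 712 to 1251 CPM, and 12 of 17 rose. The part of cell division in the Fdps and Idi1 values was not tested.

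Mvd, the decarboxylase that supplies the isoprenoid unit, was the enzyme that rose in skin. At day 7 it was at 8.87, 15.7, 11.4 and 14.7 CPM in controls and at 30.9, 27.6, 18.9 and 26.9 CPM in depleted libraries. The arms did not overlap, the log2 change was 1.04 (SE 0.23, adjusted p = 0.00739), and the call held without each library in turn. Skin at day 4 gave 13.8, 12.1, 14.8 and 13.8 CPM against 21.9, 30.3, 13.8 and 18.5 CPM, with a log2 change of 0.61 (SE 0.24, adjusted p = 0.179). In muscle at day 7 its levels of 24.1, 12.9 and 11.9 CPM against 37.9, 21.4 and 20.7 CPM overlapped (log2 0.70, SE 0.31, adjusted p = 0.193). Mvd shares none of its 31-base words with another gene. In skin at day 7 the 4 erythroid markers summed to 64.2 to 242 CPM in depleted and 773 to 1157 CPM in control cells. The 6 markers of keratinocytes and sebocytes summed to 7.96 to 13 against 23.5 to 60.3 CPM. The part of these or of the granulocyte transcripts in any value of skin at day 7 was not tested.

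Hsd17b7, a ketoreductase that acts late in the pathway, had the largest log2 change of any member in the 8 comparisons. In heart at day 4 it was at 2.34, 1.07 and 1.09 CPM in controls and at 4.45, 7.69 and 5.84 CPM in depleted libraries. The arms did not overlap, and the log2 change was 1.90 (SE 0.46, adjusted p = 0.0103). At day 7 the controls stood at 3.21, 7.53 and 4.72 CPM and the depleted libraries at 3.44, 3.01 and 5.17 CPM, which overlapped (log2 -0.46, SE 0.36). The drop in its depletion effect from day 4 to day 7 was called (-2.36, SE 0.59, adjusted p = 0.0242) and held without 6 of the 12 libraries. At day 4 the call was lost without the control library W4 (adjusted p = 0.0575), and these controls are those with the high ribosomal protein share.

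**Figure D2:**
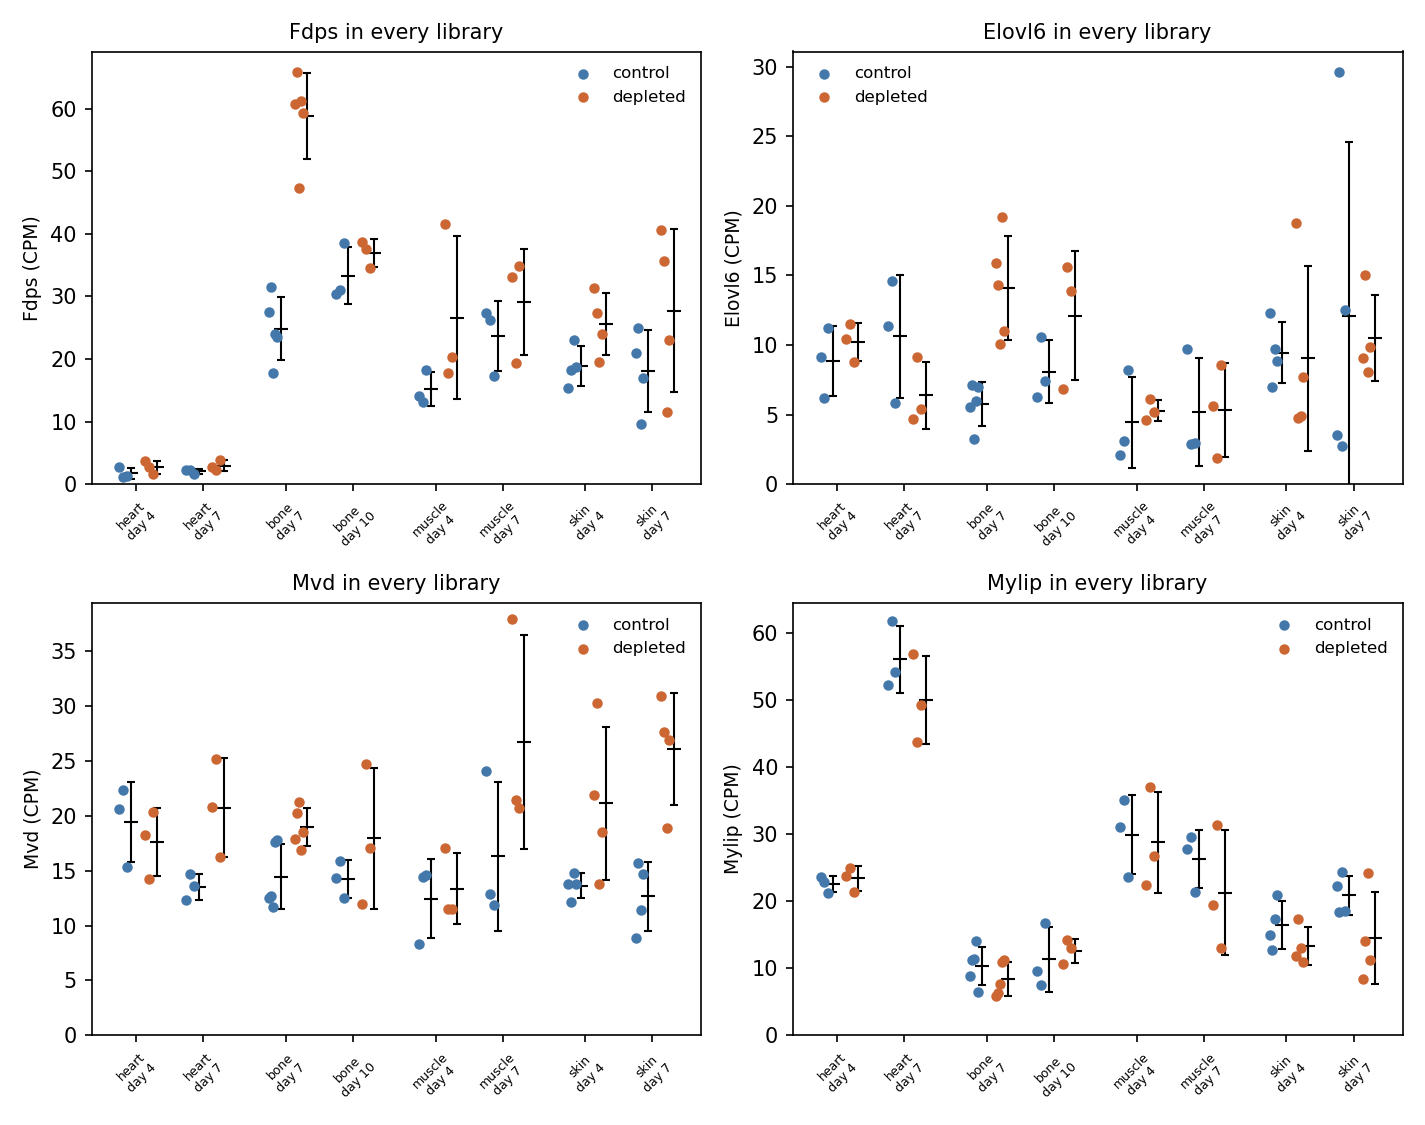
Fdps, Elovl6, Mvd and Mylip in CPM, with 1 point per library (control blue, depleted orange) and the mean and SD of each group in black; the lower SD bar of Elovl6 in skin controls of day 7 passes below 0 and is cut. Fdps and Elovl6 separate the arms in bone at day 7, Mvd does so in skin at day 7, and Mylip rises with day in heart in both arms.

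The remaining 12 enzymes of sterol synthesis, Acat2, Hmgcs1, Mvk and Pmvk of the mevalonate pathway and Fdft1, Sqle, Lss, Cyp51, Msmo1, Nsdhl, Sc5d and Dhcr7 of the later steps, passed in no depletion comparison. Of these, Acat2 shares 43.7 percent, Fdft1 31.9 percent and Hmgcs1 13.1 percent of their 31-base words with other genes. Pmvk, the phosphomevalonate kinase, was in heart at log2 0.48 (SE 0.16, adjusted p = 0.0641) at day 4 and 0.50 (SE 0.15, adjusted p = 0.076) at day 7, without overlap of the arms on either day. The median log2 change of the enzymes was 0.31 in muscle at day 4, with 15 of 16 above 0, and 0.33 at day 7, with 14 of 16 above 0, while the medians over all genes tested were 0 and -0.01. Without depleted library 1 of day 4, whose enzymes summed to 312 CPM against 214 and 216 CPM in the other depleted libraries, the day 4 median was 0.13 with 13 of 16 above 0. Leaving out other libraries in turn gave 0.25 to 0.50 at day 4, the highest without depleted library 3. At day 7 the median was 0.20 without depleted library 1, 0.21 without control library 3 and 0.53 without control library 1, and 0.26 to 0.42 without each of the others. In the other comparisons it lay between -0.06 in bone at day 7 (7 of 16 above 0) and 0.18 in skin at day 7 (11 of 16). Leaving out each library there gave 0.02 to 0.39 in heart at day 4 and -0.01 to 0.27 at day 7. In skin it gave 0.07 to 0.22 at day 4 and 0.15 to 0.26 at day 7. In bone it gave -0.15 to 0 at day 7 and 0.02 to 0.20 at day 10. The ranges of heart and skin overlapped those of muscle. No enzyme passed in muscle, and members of a pathway are not independent of each other.

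The summed level of the 16 enzymes ran from 187 to 385 CPM over all libraries. Heart was scaled separately, and Idi1 and Fdps add little to its sums, so these are not on the same footing as those of the other tissues. In muscle at day 7 it was 226 to 309 CPM in controls and 265 to 385 CPM in depleted libraries, and at day 4 194 to 215 against 214 to 312 CPM, overlapping on both days. In bone at day 7 the sum was 187 to 261 CPM in controls and 260 to 289 CPM in depleted libraries, which overlapped at the edge, with means of 239 ± 29.7 and 272 ± 14.3 (SD, n = 5). Without Fdps, whose counts are uncertain, the other 15 enzymes had means of 214 ± 25.4 and 213 ± 10.9 CPM. Abca1 and Abcg1 together were at 103 to 153 CPM in controls and 41.6 to 81 CPM in depleted cells. In skin at day 7 the enzymes summed to 215 to 276 CPM against 233 to 313 CPM, and at day 4 to 202 to 233 against 224 to 258 CPM.

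**Figure D3:**
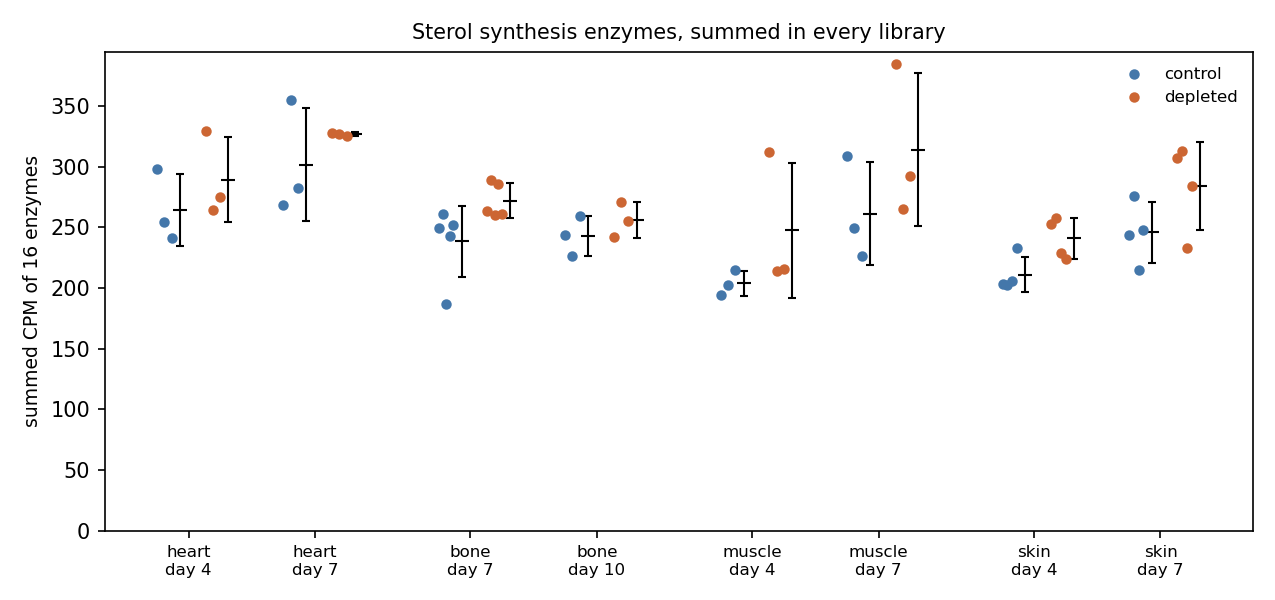
Summed CPM of the 16 sterol synthesis enzymes, with 1 point per library (control blue, depleted orange) and the mean and SD of each group in black. All libraries lie between 187 and 385 CPM and the ranges of the arms overlap in each tissue and day. Heart was scaled separately from bone, muscle and skin.

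The regulators gave no call for depletion. Srebf2, the SREBP of sterol synthesis, ran from log2 -0.38 in bone at day 10, where its arms did not overlap, to 0.38 in skin at day 4. Insig1, the sterol-sensing anchor and itself a target, ran from -0.52 in skin at day 4 to 0.41 in heart at day 7. Stard4, a carrier of cholesterol between membranes, ran from -0.38 in bone at day 10 to 0.65 in bone at day 7 (adjusted p = 0.0799).

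Among the 6 genes of fatty acid synthesis, 2 rose in bone. Elovl6, which lengthens palmitate to stearate, was at 5.54, 7.16, 3.24, 5.99 and 6.96 CPM in controls of day 7 and at 15.9, 14.3, 10.1, 19.2 and 11 CPM in depleted libraries. The arms did not overlap, with a log2 change of 1.27 (SE 0.27, adjusted p = 0.0018), which held without each library in turn. Elovl6 shares 6.5 percent of its words with other genes. Scd2, a desaturase that makes monounsaturated fatty acids, was at 13.5, 12.1 and 9.74 CPM in controls of day 10 and at 22.2, 24 and 30.4 CPM in depleted libraries. These did not overlap either (log2 1.12, SE 0.29, adjusted p = 0.0121), but the call was lost without control or depleted library 3 and with the Rn18s-rs5 covariate. Scd2 shares 6.8 percent of its words, chiefly with Scd1, Scd3 and Scd4.

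Acly, Acaca, Fasn and Scd1 passed in no depletion comparison. In muscle at day 7 Acaca, which makes malonyl-CoA, was at 7.83, 8.42 and 9.53 CPM in controls and at 5.29, 3.96 and 4.19 CPM in depleted libraries, and Fasn, the synthase that uses it, at 10.1, 7.18 and 8.04 against 5.99, 4.49 and 3.56 CPM. Neither pair of arms overlapped, but the share of all genes that separate in this way was not counted. The log2 changes were -0.92 (SE 0.28, adjusted p = 0.052) for Acaca and -0.84 (SE 0.36, adjusted p = 0.184) for Fasn. Acaca shares 33.5 percent of its words with other genes, so its counts are uncertain throughout. Acly, which makes cytosolic acetyl-CoA, was in the same libraries at 74.4, 60.3 and 66.4 against 82.3, 112 and 87.6 CPM (log2 0.48, SE 0.16, adjusted p = 0.0643). Soat1, which esterifies cholesterol for storage, ran from log2 -0.20 in heart at day 4 to 0.35 in bone at day 7 (adjusted p = 0.0623) and was not called.

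**Figure D4:**
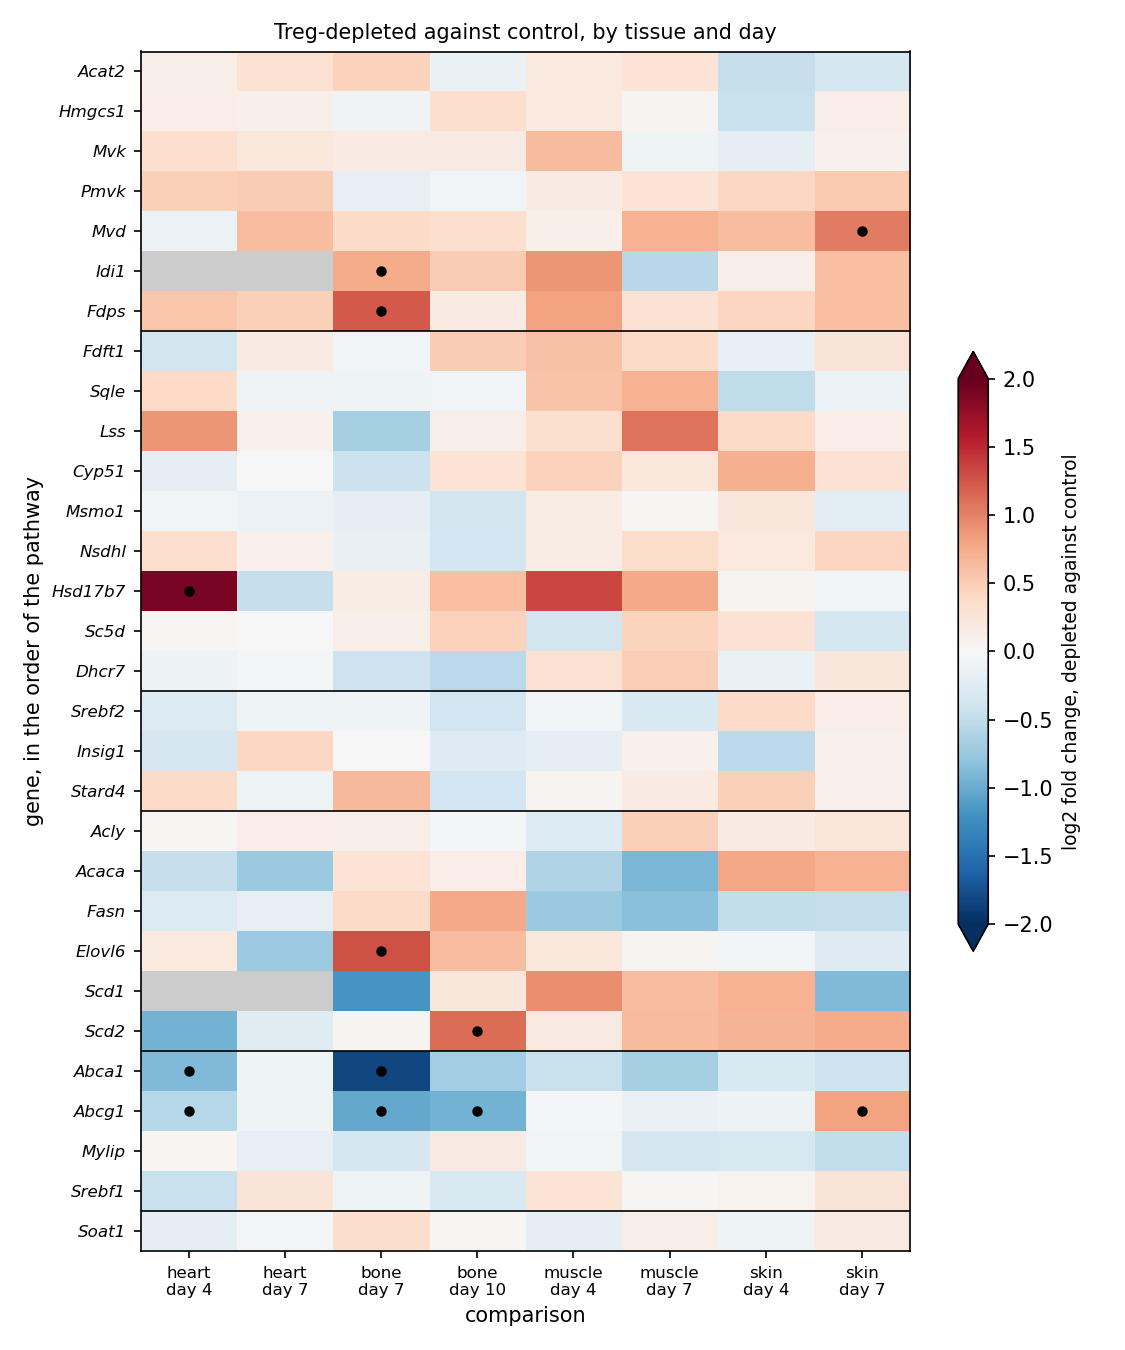
Log2 change of depleted against control cells for the 30 genes (rows, in pathway order, with lines between roles) in the 8 comparisons (columns); red is higher and blue lower in depleted cells, the scale ends at 2 in each direction, dots mark calls and grey cells were not tested. Of the 236 values tested 12 carry a dot, and 6 of those lie in the rows of Abca1 and Abcg1.

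Other genes of the pathways were taken from 4 lists. Of 16 further LXR genes, 9 fell in bone at day 7 and none rose, where 12.6 percent of all genes fell, among them Apoe, the main apolipoprotein made by macrophages (log2 -2.78, SE 0.22, adjusted p = 1.27e-07), and Pltp, the phospholipid transfer protein (-2.19, SE 0.17, adjusted p = 5.05e-08). The receptor gene Nr1h3 (LXR alpha) itself fell in bone at both days (-1.62, SE 0.35 at day 7 and -1.83, SE 0.49 at day 10). At day 10, 4 of these 16 fell and 1, Smpdl3a, rose, where 8.22 percent of all genes fell and 8.95 percent rose. Nr1h3 at day 7, Smpdl3a and, for bone at day 10, Lbr were singled out after their values were seen. Apoe also fell in muscle at day 7 (-1.12, SE 0.26), beside the marker sums given above, and in skin at day 4 (-1.42, SE 0.24) and day 7 (-1.10, SE 0.23). In skin at day 4 the markers of mast cells, basophils and eosinophils summed to 154 to 509 CPM in depleted and 11.3 to 29.1 CPM in control cells, and their part in the Apoe value was not tested. In skin at day 7 Apoe was lower while Abcg1 was higher in the same depleted libraries, as was Lpl, lipoprotein lipase (1.37, SE 0.34, adjusted p = 0.0259).

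Of a list of further genes of sterol synthesis and uptake, Lbr, a sterol reductase of the nuclear envelope, rose in bone at day 7 (0.94, SE 0.17, adjusted p = 0.000333) and day 10 (0.87, SE 0.22, adjusted p = 0.0102). Of 10 tested genes of cholesterol storage and release, 7 fell in bone at day 7 and 3 at day 10, against the shares of all genes given above, 12.6 and 8.22 percent, led at day 7 by Cd36, a scavenger receptor (-2.09, SE 0.41), and at day 10 by Plin2, the coat of lipid droplets (-1.53, SE 0.22). Of 12 tested genes of fatty acid synthesis outside the 30, 4 fell and none rose in bone at day 10 (8.22 percent of all genes fell), including Fads1 (-1.39, SE 0.43) and Lpin1 (-1.32, SE 0.39).

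The remaining calls with the largest changes in these lists were spread over tissues. In bone, Cyb5r3, a reductase that feeds electrons to sterol and fatty acid desaturation, fell at day 7 (-1.17, SE 0.18) and day 10 (-0.96, SE 0.23), as did Lipa, the lysosomal acid lipase (-1.17, SE 0.18 and -1.13, SE 0.23). Osbp, the oxysterol-binding protein, rose at day 10 (1.40, SE 0.36), and at day 7 Lpin1 fell (-1.0, SE 0.29) while Mlx rose (0.42, SE 0.15). In muscle at day 7, Lpcat3, an LXR target that remodels phospholipids, rose (1.23, SE 0.20), whereas Cyp27a1, which makes an oxysterol, and Mid1ip1, which activates acetyl-CoA carboxylase, fell (-1.29, SE 0.23 and -0.84, SE 0.24). In heart at day 4, Ch25h, another oxysterol enzyme, rose (1.12, SE 0.31), as did Lpl (0.66, SE 0.19), and Pcyt2 fell (-0.92, SE 0.21). At day 7 in heart Mid1ip1 fell (-0.58, SE 0.13). In skin at day 4, Pltp (-1.16, SE 0.24) and Mid1ip1 (-0.79, SE 0.17) fell and the scavenger receptor Msr1 rose (0.60, SE 0.16).

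Between days, Mylip and Abca1 rose in heart and Abca1 fell in muscle. In heart, Mylip rose from 23.6, 22.8 and 21.3 CPM at day 4 to 52.3, 61.7 and 54.2 CPM at day 7 in controls (log2 1.31, SE 0.15, adjusted p = 1.52e-06). In depleted cells it rose from 23.8, 25 and 21.4 to 56.9, 43.8 and 49.3 CPM (1.11, SE 0.15, adjusted p = 4.45e-05). In both arms every day 7 library lay above every day 4 library. Abca1, whose values are given above, rose in heart by log2 0.48 (SE 0.15, adjusted p = 0.0155) in controls and 1.28 (SE 0.15, adjusted p = 1.53e-05) in depleted cells. In muscle it fell, by log2 -1.07 (SE 0.21, adjusted p = 0.003) in controls and -1.29 (SE 0.21, adjusted p = 0.000248) in depleted cells, and no muscle library of day 7 reached a day 4 control. Heart and muscle come from separate tables, so the difference between them was not tested. Abcg1 was called in neither tissue between days, and Mylip was not called in muscle (log2 -0.17, SE 0.27 in controls and -0.44, SE 0.27 in depleted cells).

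In heart controls, 8 of 28 members rose and 3 fell from day 4 to day 7, where 15 percent of all genes rose and 16.9 percent fell. The 8 were 5 enzymes of sterol synthesis (Hmgcs1, Lss, Hsd17b7, Sc5d and Dhcr7), Stard4, Abca1 and Mylip. Those that fell were Fasn (log2 -0.93, SE 0.30, adjusted p = 0.0209), Srebf1 (-0.72, SE 0.17, adjusted p = 0.00354) and Soat1 (-0.54, SE 0.15, adjusted p = 0.00945). In depleted heart cells, which do not involve the day 4 controls, 5 rose (Sc5d, Dhcr7, Insig1, Abca1 and Mylip) and none fell, against 13.7 percent of genes in each direction. Sc5d, the desaturase near the end of the pathway, went from 29.3, 18.8 and 18 to 29.7, 44.4 and 35.9 CPM in controls (0.73, SE 0.22) and from 30.4, 15.8 and 20.8 to 35.1, 36.9 and 38.8 CPM in depleted cells (0.70, SE 0.22). The days did not overlap in either arm.

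In muscle, 2 of 30 members rose and 1 fell in controls, against 4.49 and 2.75 percent of all genes, and 5 rose and 1 fell in depleted cells, against 10.7 and 8.72 percent. Scd1 rose in both arms, from 0.207, 0.388 and 0.945 to 4.74, 1.85 and 1.19 CPM in controls (log2 2.26, SE 0.65, adjusted p = 0.0427) and from 1.05, 0.47 and 1.59 to 4.93, 3.43 and 3.77 CPM in depleted cells (1.94, SE 0.58, adjusted p = 0.0252). The days did not overlap in either arm, but the values are low and the calls were lost without several libraries. Idi1 rose in muscle controls from 3.11, 4.66 and 5.2 to 15.9, 12.1 and 8.93 CPM (1.51, SE 0.40, adjusted p = 0.0253). Sqle, the oxygenase that commits squalene to sterols, rose in depleted muscle from 8.15, 3.99 and 5.95 to 19.2, 10.8 and 13.2 CPM (1.27, SE 0.33, adjusted p = 0.00932), as did Mvd (1.01, SE 0.31), Dhcr7 (0.90, SE 0.25) and Acly (0.57, SE 0.16). Of the 16 sterol enzymes, 15 had a log2 change above 0 in each muscle arm, with medians of 0.37 in controls and 0.40 in depleted cells. At day 7 library 1 had the highest enzyme sum in both arms. It was at 309 CPM against 249 and 226 CPM in controls, and at 385 CPM against 265 and 292 CPM in depleted libraries. These medians were not taken without each library, and the share of all genes above 0 was not counted. Members of a pathway are not independent of each other.

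In bone and skin 4 calls of members between days were made. No member was called in bone controls from day 7 to day 10, where 0.0393 percent of genes rose and 0 percent fell. In depleted bone Scd1 (log2 2.73, SE 0.65, adjusted p = 0.0101) and Scd2 (1.44, SE 0.25, adjusted p = 0.00126) rose and Fdps (-0.65, SE 0.18, adjusted p = 0.0197) fell, against 7.13 percent of genes higher and 5.04 percent lower. The Scd1 value rests on 2, 5, 2, 2 and 0 counts at day 7 and 5, 9 and 13 counts at day 10. Scd1 shares 8.2 percent of its words with other genes, Scd2 among them. Scd2 went from 11.1, 7.15, 12.9, 8.9 and 7.59 CPM to 22.2, 24 and 30.4 CPM, with no overlap, and held without each library. In skin controls Sc5d rose from 12.8, 12.1, 15.5 and 9.58 to 21.2, 24.9, 20.6 and 32.1 CPM (0.98, SE 0.24, adjusted p = 0.0274), the only member called, against 1.42 percent of genes higher and 0.848 percent lower. In depleted skin none was called, against 1.36 and 1.25 percent.

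**Figure D5:**
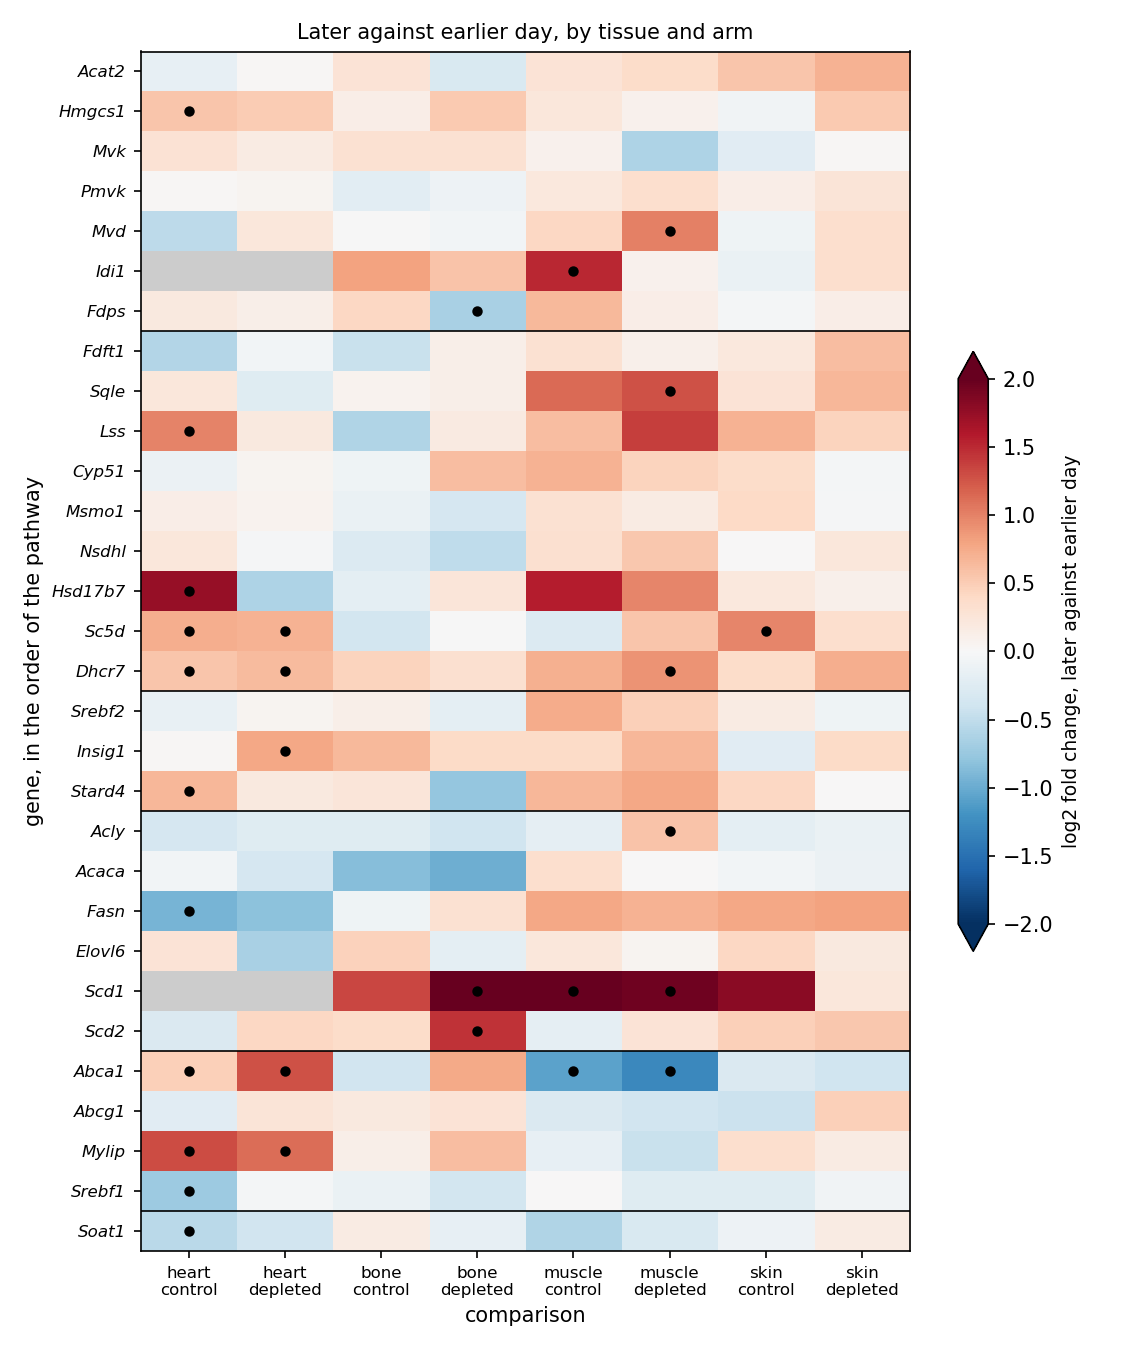
Log2 change of the later against the earlier day for the 30 genes (rows, in pathway order) in each tissue and arm (columns; day 7 against 4, and in bone day 10 against 7); red is higher and blue lower at the later day, the scale ends at 2 in each direction, dots mark calls and grey cells were not tested. Abca1 is red in both heart columns and blue in both muscle columns.

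In control cells of day 7, members of several roles differed between tissues. Abca1, Abcg1 and Mylip were all lower in bone than in muscle (log2 -0.96, SE 0.30; -0.92, SE 0.18; and -1.33, SE 0.28), the only 3 members called, against 7.32 percent of genes lower and 6.28 percent higher. Mylip was at 8.78, 11.2, 11.4, 14 and 6.53 CPM in bone, 27.8, 29.6 and 21.4 CPM in muscle and 22.3, 18.4, 24.3 and 18.5 CPM in skin. Its bone libraries lay below those of both other tissues, which overlapped. Against skin, bone was lower in Abca1 (-1.19, SE 0.28, adjusted p = 0.00117), Mylip (-0.99, SE 0.26, adjusted p = 0.00409), Sc5d (-0.89, SE 0.24, adjusted p = 0.00481) and Scd1 (-2.88, SE 0.68, adjusted p = 0.00132), and higher in Abcg1 (0.53, SE 0.18) and Acaca (1.05, SE 0.36), whose counts are uncertain. These are 4 of 30 members lower and 2 higher, against 14.1 percent of all genes lower and 11.5 percent higher in bone than in skin. The Scd1 value rests on skin control library 2, at 21.7 CPM against 2.16 to 2.77 CPM in the other 3, and without it the log2 difference was -1.29 (adjusted p = 0.183).

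Among the controls of day 7, Abcg1 was highest in muscle, at 187, 162 and 200 CPM. It was at 115, 77.3, 114, 79.5 and 97.1 CPM in bone and, in skin, at 56.2, 47.9, 85.6 and 78.7 CPM. Muscle lay above skin by log2 1.45 (SE 0.20, adjusted p = 1.36e-06) without overlap, whereas bone and skin overlapped and their difference was lost without 4 of 9 libraries. Muscle also exceeded skin in Acaca (1.26, SE 0.39), whose counts are uncertain, and Dhcr7 (0.89, SE 0.30), and these 3 were the only members called, against 5.17 percent of genes higher and 6.76 percent lower. Markers of neutrophils summed to 6108 to 12361 CPM in these bone controls, 210 to 258 CPM in muscle and 1067 to 1972 CPM in skin, and the part of this difference in the tissue values was not tested.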

How the data were processed

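RNA of sorted monocytes and macrophages was read from 3′ ends with molecular identifiers, per the labels' protocols; no source used here states the annotation, the counting strand or whether identifiers were collapsed. The authors deposited raw counts per gene for heart and estimated counts for bone, muscle and skin, of which 19.4 percent of non-zero values were not whole (tolerance 0.01) and were rounded. STAR, featureCounts and limma, and for heart also Salmon, are named in the submitters' processing notes, with the build GRCm38 for heart and both GRCm38 and GRCm39 for the other tissues. Gene positions and shared 31-base words come from an annotation of GRCm38.

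The test was that of edgeR 4.0.16 (R 4.3.3), with TMM scaling, filterByExpr, a robust quasi-likelihood fit of the 4 groups of a tissue, and Benjamini-Hochberg adjustment over all genes tested (11339 in heart, 12709 in bone, 12907 in muscle, 12616 in skin), with a threshold of 0.05. Tissues were compared in 1 fit of bone, muscle and skin over 14340 genes. CPM of the pathway genes and their sums use TMM-scaled library sizes, computed separately for heart and for bone, muscle and skin together. CPM of the cell type and division markers, the ribosomal protein genes and Rn18s-rs5 use plain library totals. On simulated counts the fit found 37 percent (bone day 10) to 69 percent (heart day 7) of 2-fold changes in the 8 depletion comparisons. It found 78 to 95 percent of 4-fold changes, with 2 to 12 false calls per comparison. An absent call therefore does not show that a gene was unchanged. Alternatives were RLE scaling, no filter, DESeq2 1.42.0, limma-voom (limma 3.58.1), the compared groups alone, an Rn18s-rs5 covariate, a replicate block and leaving out each library. All 30 genes were described; called ones were named by size of change, every called LXR target was given, and of each list of other pathway genes up to 2 called genes with the largest change were named per comparison. The members and lists were chosen with earlier results of these data known. Some genes of the list of sterol synthesis and uptake, and that list's counts, are not reported here. Leaving out each library for the median of the 16 enzymes was added after seeing the data.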

Additional observations from a re-analysis of the deposited data

Results flagged for a closer look

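In groups of 4 or 5 libraries, 186 sets of values were searched for a library far from the others, and 15 were found; chance flags about 1 in 20 groups. In bone controls of day 7 the third library had the lowest enzyme sum, 187 CPM, and in depleted bone of day 7 library 4 was high in Mvk (15.3 CPM) and library 2 in Pmvk (42.5 CPM). In skin controls of day 4, library 4 was high in Pmvk (53.9 CPM), Stard4 (9.94 CPM) and the enzyme sum (233 CPM), and library 3 was low in Abcg1 (67.8 CPM). In depleted skin of day 4, library 1 was high in Scd1 (7.11 CPM) and low in Abca1 (37.4 CPM). In skin controls of day 7, library 3 was low in Mvk (5.23 CPM) and library 2 high in Scd1 (21.7 CPM). In depleted skin of day 7, library 1 was high in Hmgcs1 (23.9 CPM) and Sc5d (27.4 CPM) and low in Fasn (4.09 CPM), and library 3 was low in Hsd17b7 (0.757 CPM).

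The effect of depletion differed between groups for 6 gene values by edgeR's test of the difference itself. Between days 7 and 4 in heart it differed by log2 -2.36 for Hsd17b7 and 0.79 for Abca1. Between bone and muscle at day 7 it differed by 1.31 for Idi1 and -0.87 for Abcg1, and between bone and skin by -1.38 for Abca1 and -1.81 for Abcg1.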

How the results depend on the processing

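Of 59 calls of members, 22 passed under every alternative and without each library, and 7 of the 12 depletion calls passed without each library; no value reversed under these settings. The numbers of members called for depletion became 1 with limma-voom in heart at day 4 (3 as reported), 1 with DESeq2 and 1 with limma-voom in heart at day 7 (0), 0 with the Rn18s-rs5 covariate in bone at day 10 (2), and 1 without the filter and 2 with DESeq2 in muscle at day 7 (0). Without the filter 5 members were called between days in muscle controls (3 as reported), and 1 each (0 as reported) for depletion by day in bone and in skin and for the depletion effect of muscle against skin. On plain library totals the mean enzyme sum was 262 CPM in bone controls of day 10 and 341 CPM in depleted heart of day 7. The cause of these changes was not tested.

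Leaving out 1 library gave 1 to 2 depletion calls in heart at day 4, 0 to 1 in heart at day 7, 0 to 3 in bone at day 10, 0 to 1 in muscle at day 7, 0 to 1 in skin at day 4 and 2 to 4 in skin at day 7. Between days it gave 5 to 10 in heart controls, 2 to 5 in depleted heart, 1 to 4 in depleted bone, 1 to 4 in muscle controls, 2 to 7 in depleted muscle and 0 to 1 in skin controls. For depletion by day it gave 0 to 2 in heart, 0 to 1 in muscle and 0 to 1 in skin, and for depletion by tissue 0 to 3 for bone against muscle, 1 to 3 for bone against skin and 0 to 1 for muscle against skin; controls of muscle against skin gave 1 to 3. The lowest counts came without control W4 in heart at day 4, control W3 and depleted F3 in the heart day comparisons, control 3 in bone at day 10, depleted 3 of day 10 in the bone day comparison and depleted 2 of day 4 in the muscle day comparison.

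With the replicate number as a block, 5 members were called between days in muscle controls (3 without it), and other counts stayed within 1.5 times. The labels do not say that equal numbers pair libraries, so the numbers were not taken to pair them. Deviations from the group mean had correlations of -0.134 to 0.195 between libraries of the same number in the 2 arms. Libraries of different numbers were not compared, so these correlations cannot decide whether the numbers pair. Heart columns carry no replicate number. Levels of a few CPM, such as Scd1 and Hsd17b7, rest on few counts.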
